A study of Mus musculus with 48 samples.

Results

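The genes described here act at both ends of the life of a lipid droplet in the liver: Fitm1, Fitm2 and Bscl2 serve its budding from the endoplasmic reticulum, and Pnpla2, Abhd5, G0s2, Lipe and Mgll serve the breakdown of its triglyceride. They are 8 named genes of the 29221 in the joined count tables, taken by symbol. The choice was made with earlier results of these data known. All 8 were found and passed the filter on low counts in each of the 24 comparisons made. RNA was taken from the whole livers of 48 adult mice carrying a floxed Pparg gene. Every mouse received an adeno-associated virus of serotype 8 whose TBG promoter directs expression to hepatocytes. The virus carried Cre (AAV8-TBG-Cre, labelled as a hepatocyte-specific knockout of PPARgamma) or no Cre (AAV8-TBG-null, the controls), and was given after 16 weeks on diet, so Pparg in other liver cells was not targeted.

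Females were fed a low fat diet (LF) or a high fat diet (HF) for 34 weeks. Other females were fed HF for 18 weeks and then HFCF, a diet with fat, cholesterol and fructose, for 16 weeks. Males were fed HF or HFCF only. The 6 female groups (control and labelled knockout on LF, HF and HFCF) had 4 livers each, and the 4 male groups (control and labelled knockout on HF and HFCF) had 6 each. The labels give no age beyond adult, and no strain besides the floxed allele.

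A droplet starts as a lens of neutral lipid between the leaflets of the endoplasmic reticulum membrane. Seipin, the product of Bscl2, marks the sites where droplets form and keeps them joined to that membrane, and the FIT proteins encoded by Fitm1 and Fitm2 help the lens leave toward the cytosol. Fitm1 is known mainly from muscle and Fitm2 from many tissues. At the other end, ATGL (Pnpla2) removes the first fatty acid of a triglyceride; CGI-58 (Abhd5) activates ATGL and the small protein encoded by G0s2 inhibits it. Hormone-sensitive lipase (Lipe) then acts on diglycerides and monoglyceride lipase (Mgll) on monoglycerides. PPARgamma, a nuclear receptor of fat storage, is known to switch on droplet genes in fatty liver.

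The stretches upstream of Fitm1, Fitm2, Pnpla2, Abhd5 and Mgll are shown because transcripts of these 5 genes were lower in the labelled knockouts of HF males. They come from RefSeq (GRCm38.p6), each read 5′ to 3′ on the gene's strand and ending before the annotated start. They lie at chr14:55575424-55575616 (plus strand, Fitm1), chr2:163472630-163472879 (minus strand, Fitm2), chr7:141454938-141455187 (plus strand, Pnpla2), chr9:122351366-122351607 (plus strand, Abhd5) and chr6:88724162-88724411 (plus strand, Mgll). Capitals mark GC boxes, GGGCGG on either strand, and in Abhd5 also the hexamer AGGTCA (read here from the other strand); the stretches of Fitm1 and Mgll hold neither.
Fitm1: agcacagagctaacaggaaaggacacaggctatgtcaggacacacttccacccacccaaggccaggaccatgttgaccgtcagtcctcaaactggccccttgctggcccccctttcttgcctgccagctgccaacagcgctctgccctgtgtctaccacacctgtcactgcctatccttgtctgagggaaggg
Fitm2: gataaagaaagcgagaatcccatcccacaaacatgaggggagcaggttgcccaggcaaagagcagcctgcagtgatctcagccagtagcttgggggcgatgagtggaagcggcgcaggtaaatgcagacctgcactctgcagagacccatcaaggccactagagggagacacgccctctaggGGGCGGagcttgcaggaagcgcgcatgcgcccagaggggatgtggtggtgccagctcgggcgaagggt
Pnpla2: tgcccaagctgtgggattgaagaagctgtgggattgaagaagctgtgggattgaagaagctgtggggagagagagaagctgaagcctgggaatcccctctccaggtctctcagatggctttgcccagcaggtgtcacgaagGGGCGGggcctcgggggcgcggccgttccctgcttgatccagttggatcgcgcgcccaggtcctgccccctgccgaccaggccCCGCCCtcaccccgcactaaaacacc
Abhd5: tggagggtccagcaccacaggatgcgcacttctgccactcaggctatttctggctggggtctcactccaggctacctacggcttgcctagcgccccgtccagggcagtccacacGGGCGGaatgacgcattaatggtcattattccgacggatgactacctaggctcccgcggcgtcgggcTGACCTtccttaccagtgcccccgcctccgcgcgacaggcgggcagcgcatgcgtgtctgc
Mgll: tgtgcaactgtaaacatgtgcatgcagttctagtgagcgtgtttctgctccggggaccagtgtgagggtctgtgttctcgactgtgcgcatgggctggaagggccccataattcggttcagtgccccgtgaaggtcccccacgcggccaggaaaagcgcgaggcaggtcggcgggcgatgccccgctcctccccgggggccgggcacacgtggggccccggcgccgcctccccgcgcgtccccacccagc

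In the RefSeq windows of 300 bases around starts (250 before and 50 after), the 8 genes had 12 windows. The direct repeat that PPAR receptors bind, in its strict form (AGGTCA, any 1 base, AGGTCA, on either strand), was in 0 of those 12 and in 13 of all 32851 windows (0.0396%). The single hexamer AGGTCA, which every such repeat contains, was in 2 of the 12, at Abhd5 and Bscl2, and in 16.3% of all windows. The GC box was in 8 of the 12 and in 35.7% of all. These are letter matches in short windows, and no binding was measured.

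As a check of the labels, Pparg was examined, and its mean was lower than the control mean in 0 of 5 comparisons. In HF males it measured 41.1 ± 14.0 CPM (read counts scaled to library size; SD, n = 6) in labelled knockouts and 34.2 ± 3.94 in controls, and in HFCF females 45.8 ± 9.37 (n = 4) and 23.7 ± 1.46. The counts cover the whole gene, and which exons the reads came from was not analysed, so they do not check a deletion of part of the gene. The groups are therefore called labelled knockouts. Replicate 6 of the HF male labelled knockouts had 18.0 CPM of Pparg, below the other 5 (38.5 to 61.6) and below all 6 HF male controls (27.7 to 38.1), and the results for the label in HF males are also given without it. Libraries held 15338239 to 22072884 reads on genes. The hepatocyte markers Alb, Apoa1, Ttr, Cps1 and Fgb were detected in every group, with a summed level of 38740 to 120023 CPM over the 48 libraries. Of the adipocyte markers, Adipoq had 0 reads in 44 of 48 libraries, Plin1 in 46 and Retn in 40. Cfd had 0 reads in 19 and reached 19.9 CPM. Of the muscle markers, Acta1 had 0 reads in 35, Ckm in 42 and Tnnt3 in 18. Mylpf had reads in every library, at 0.218 to 2.21 CPM.

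Per gene length, G0s2 was the most abundant of the 8. Its group means ran from 102 to 213 FPKM, the authors' value per length and depth, followed by Mgll (35.7 to 67.9) and Pnpla2 (25.0 to 39.0). Fitm2 lay between 11.6 and 26.9 FPKM, Bscl2 between 6.86 and 8.61, Abhd5 between 3.30 and 4.73 and Lipe between 2.42 and 3.93. Fitm1 spanned the rest of the scale, from 3.49 to 60.7 FPKM. In CPM its highest group mean was 17.4 times its lowest, against 2.33 times for Fitm2, 2.09 for G0s2, 1.92 for Mgll, 1.62 for Lipe, 1.57 for Pnpla2, 1.44 for Abhd5 and 1.26 for Bscl2. When the 10 groups were ordered by mean CPM, the ranges of each of the 9 neighbouring pairs overlapped, for all 8 genes.

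**Figure D1:**
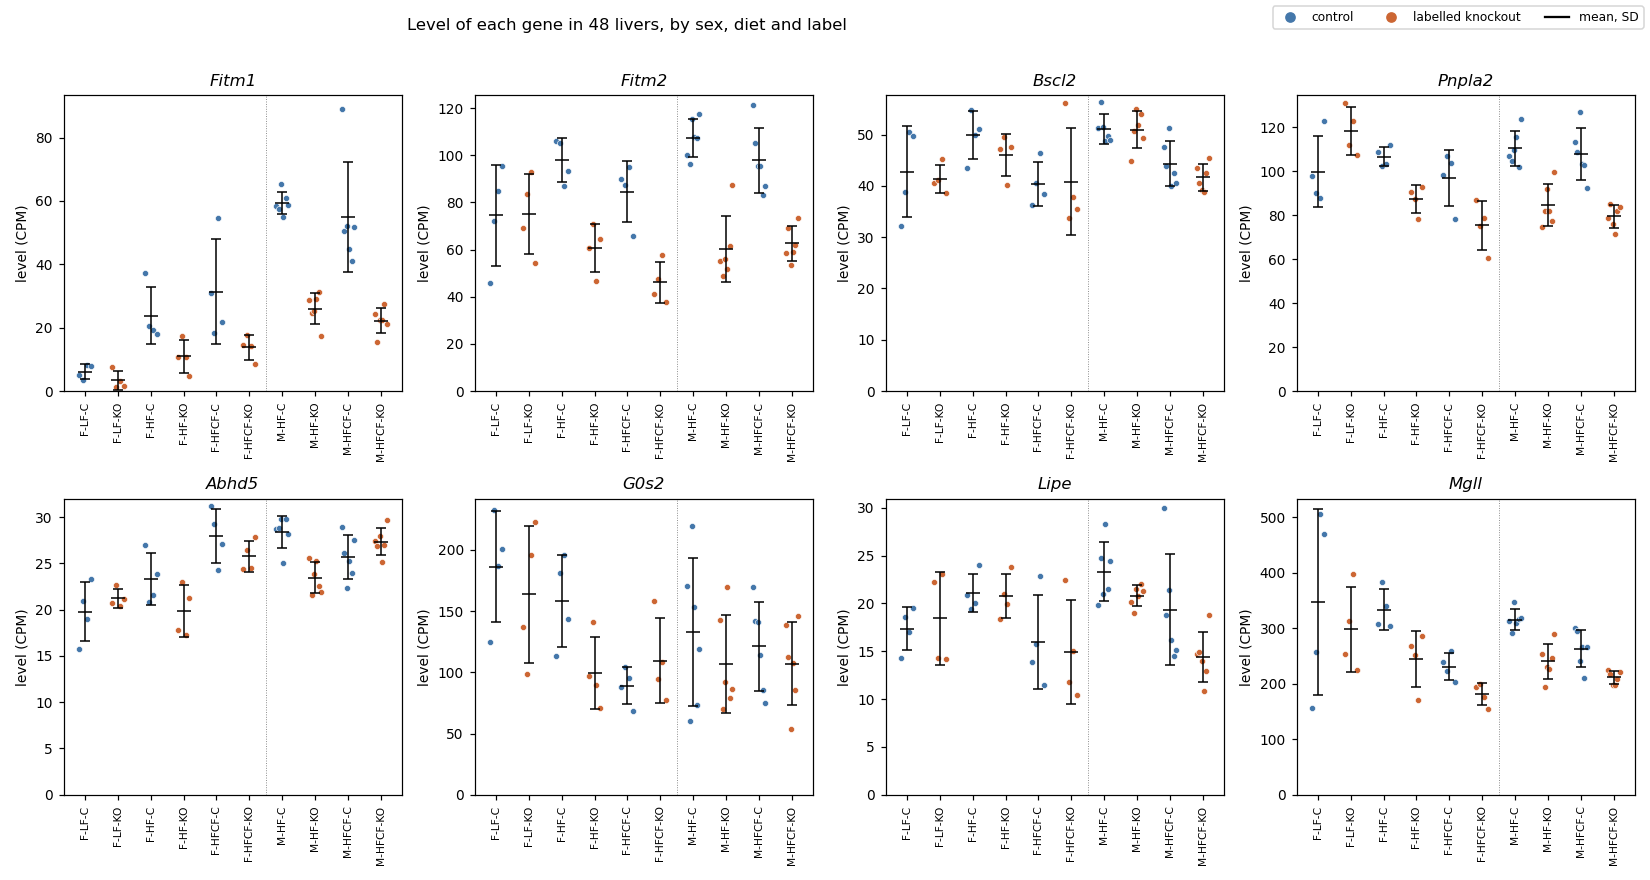
Level of each gene in CPM (vertical axes, from 0) in 48 livers, 1 point per liver, by group (F female, M male, C control, KO labelled knockout). Bars are the mean and SD of 4 female or 6 male livers; Fitm1 runs from 1.27 to 89.0 CPM while Bscl2 stays between 32.1 and 56.4.

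The group means of Fitm1 differed by diet, by sex and by label, and which differences passed a test is given below. In LF female controls it measured 5.07, 3.38, 8.12 and 7.95 CPM, and in LF female labelled knockouts 7.61, 1.27, 3.25 and 1.49 CPM, where 1 library held only 19 of its reads. In HF female controls it measured 37.1, 20.5, 19.4 and 17.9 CPM. The HFCF female controls measured 31.0, 18.3, 54.7 and 21.7 CPM. No HF or HFCF female control reached down into the LF range. In HF male controls the lowest, median and highest values were 55.1, 58.5 and 65.2 CPM, and in HFCF male controls 41.0, 51.1 and 89.0 CPM. The means in order were 3.41 (LF female labelled knockouts), 6.13 (LF female controls), 11.0 and 13.8 (HF and HFCF female labelled knockouts), 22.2 (HFCF male labelled knockouts), 23.7 (HF female controls), 26.0 (HF male labelled knockouts), 31.4 (HFCF female controls), 54.9 (HFCF male controls) and 59.3 CPM (HF male controls).

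Which of the 2 FIT genes was the more abundant per length also differed between groups. The median ratio of Fitm1 to Fitm2 in FPKM was 0.366 in LF female controls and 0.127 in LF female labelled knockouts, and 0 of 4 libraries in either group exceeded 1. It was 0.851 and 0.835 in HF females (controls, then labelled knockouts) and 1.38 and 1.23 in HFCF females. In males it was 2.32 and 2.07 on HF and 2.13 and 1.62 on HFCF. All 6 control libraries of each male group exceeded 1, as did 5 of 6 in each male labelled-knockout group. Thus Fitm2 was the more abundant in LF females, and Fitm1 in nearly all male livers.

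**Figure D2:**
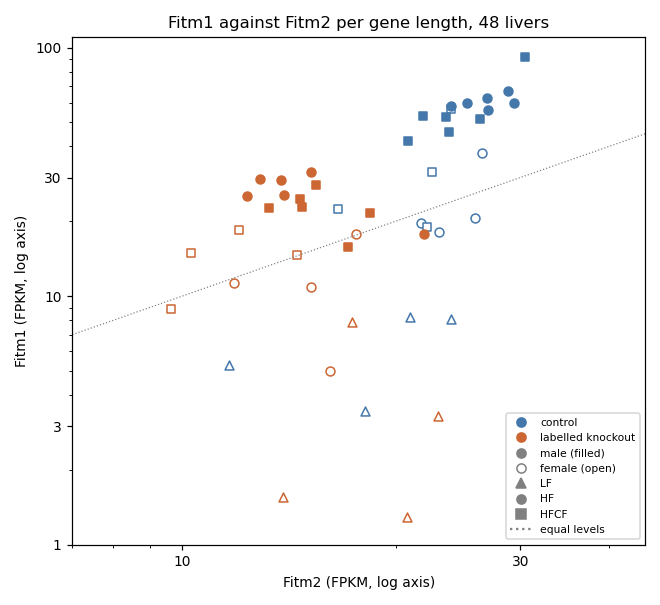
Fitm1 (vertical) against Fitm2 (horizontal) in FPKM, both on log axes, 1 point per liver for 48 livers; the dotted line marks equal levels. All 12 male controls lie above the line, and all 8 LF females lie below it.

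The first comparison asked how the 8 genes differ between labelled knockouts and controls in HF males. Transcripts of 5 of the 8 were lower: Fitm1, Fitm2, Pnpla2, Abhd5 and Mgll. Among all genes tested there, 9.88% were lower and 18.5% changed in either direction. Fitm1 measured 17.3 to 31.2 CPM (median 27.0) in labelled knockouts against 55.1 to 65.2 (median 58.5) in controls. Its log2 difference was -1.19 (SE 0.11, edgeR quasi-likelihood adjusted p = 2.81e-06), a fall of 56.3%. Fitm2 measured 48.9 to 87.3 CPM (median 55.7) against 96.3 to 117 (median 107). The log2 difference of Fitm2 was -0.84 (SE 0.11, edgeR adjusted p = 0.000146). For both FIT genes every labelled knockout lay below every control. Bscl2 did not pass the test: its means were 51.0 ± 3.63 and 51.1 ± 2.85 CPM (SD, n = 6 each), with a log2 difference of -0.01 (SE 0.06, edgeR adjusted p = 0.928).

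The lipase and its activator were lower by less. Pnpla2 measured 74.9 to 99.6 CPM (median 82.2) in the labelled knockouts of HF males and 102 to 124 (median 108) in controls, again without overlap, with a log2 difference of -0.39 (SE 0.07, edgeR adjusted p = 0.0018). Abhd5 measured 21.6 to 25.6 CPM against 25.0 to 29.8. Its ranges met, and its log2 difference was -0.28 (SE 0.07, edgeR adjusted p = 0.00729). Mgll, last in the chain, measured 195 to 290 CPM against 291 to 347, a log2 difference of -0.40 (SE 0.08, edgeR adjusted p = 0.00257). The inhibitor G0s2 spread widely within both groups, from 70.0 to 170 CPM and from 60.6 to 220 CPM, and did not pass (log2 difference -0.32, SE 0.29, edgeR adjusted p = 0.476). Lipe did not pass either, at 20.8 ± 1.11 against 23.3 ± 3.09 CPM (SD, n = 6 each; edgeR adjusted p = 0.17).

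In that comparison 4 of the 8 genes had non-overlapping groups with the labelled knockouts lower, as did 4.47% of all genes averaging at least 1 CPM. Without replicate 6 of the labelled knockouts, which had the highest Fitm2 and the lowest Fitm1 of its group, the log2 differences were -0.98 for Fitm2 (edgeR adjusted p = 4.71e-07) and -1.10 for Fitm1 (edgeR adjusted p = 1.4e-07). Those of Pnpla2, Mgll and Abhd5 were then -0.44, -0.46 and -0.26 (edgeR adjusted p = 0.000434, 0.000425 and 0.0157). The 5 calls held with any 1 of the 12 libraries left out. All 5 hepatocyte markers were higher in these labelled knockouts, with a median log2 difference of 0.40 and a summed level of 88687 to 103716 CPM against 60182 to 84771. The summed level of the adipocyte markers was 0 to 0.0675 CPM against 1.64 to 8.18, nearly all of it Cfd (adipsin, which a fatty liver also expresses). Both blood markers (Hba-a1 and Hbb-bs) were also higher, with a summed level of 79.8 to 605 CPM against 83.0 to 160 CPM, and 2 of 5 hepatic stellate markers were lower (median -0.15). Of all genes tested there, 9.88% were lower and 18.5% changed in either direction. The part of these markers in the result was not tested. In whole liver, fewer cells of a type and less RNA per cell cannot be told apart.

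In HFCF males 3 of the 8 genes were lower in labelled knockouts, Fitm1, Fitm2 and Pnpla2, where 1.27% of all genes tested were lower and 2.21% changed. Fitm1 measured 15.6 to 27.5 CPM (median 22.4) against 41.0 to 89.0 (median 51.1), a log2 difference of -1.30 (SE 0.17, edgeR adjusted p = 0.000925). Fitm2 measured 53.4 to 73.4 CPM against 83.1 to 121, a log2 difference of -0.64 (SE 0.10, edgeR adjusted p = 0.00252). Pnpla2 measured 71.4 to 85.0 CPM against 92.2 to 127, a log2 difference of -0.44 (SE 0.07, edgeR adjusted p = 0.00383). None of the 3 overlapped between groups, while 1.59% of genes averaging at least 1 CPM were lower without overlap. The 3 calls held with any 1 of the 12 libraries left out. The adipocyte markers summed to 0 to 0.385 CPM in these labelled knockouts against 2.88 to 19.9 in controls. The hepatocyte sums overlapped, at 54009 to 63987 against 38740 to 61610 CPM. The part of these markers in the result was not tested.

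The others did not pass in HFCF males. Mgll measured 212 ± 11.9 against 264 ± 33.7 CPM (SD, n = 6 each; log2 difference -0.31, edgeR adjusted p = 0.0737). Mgll passed with the DESeq2 Wald test (adjusted p = 0.014), with all male groups in 1 fit (edgeR adjusted p = 0.0294) and without control replicate 5 (edgeR adjusted p = 0.0192). Lipe measured 14.4 ± 2.63 against 19.3 ± 5.79 CPM (edgeR adjusted p = 0.258, n = 6 each). Abhd5, G0s2 and Bscl2 had log2 differences of 0.10, -0.17 and -0.08. Replicate 1 of the controls held the highest Fitm1 (89.0 CPM), Fitm2 (121 CPM) and Lipe (29.9 CPM) of its group. Without it the log2 difference of Fitm1 was -1.11 (edgeR adjusted p = 3.04e-05) and that of Lipe was -0.25 (edgeR adjusted p = 0.263).

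Abhd5 was the member whose labelled-knockout difference itself differed between the male diets. It was -0.28 on HF and 0.10 on HFCF on the log2 scale, and the interaction was 0.36 (SE 0.09, edgeR adjusted p = 0.0408), the only one of the 8 called where 1.56% of all genes tested were, 0.987% in that direction. The call depended on single libraries. It was kept in 8 of 24 leave-one-out fits, and in the other 16 the adjusted p ran from 0.0525 to 0.0811 with a log2 difference of 0.33 to 0.38. Those 16 left out HF control replicate 1, 3, 5 or 6, HF labelled-knockout replicate 2, 3, 5 or 6, HFCF control replicate 2, 3, 4 or 5, or HFCF labelled-knockout replicate 1, 3, 5 or 6. It was also lost with no filter on low counts (edgeR adjusted p = 0.0759). For the FIT genes the interaction was -0.12 (Fitm1) and 0.19 (Fitm2), with edgeR adjusted p of 0.825 and 0.586.

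In females none of the 8 genes passed between labelled knockouts and controls on any diet, where 0% (LF), 0% (HF) and 0.0534% (HFCF) of all genes tested did. At an unadjusted p under 0.05 in edgeR there were 0 of 8 on LF, 5 on HF and 4 on HFCF; the DESeq2 Wald test called 0, 2 and 1. The same unadjusted threshold was passed by 2.49%, 8.03% and 8.95% of all genes tested. In HF females Fitm1 measured 10.6, 17.5, 10.9 and 4.89 CPM in labelled knockouts and 37.1, 20.5, 19.4 and 17.9 CPM in controls, a log2 difference of -1.10 (SE 0.35, edgeR adjusted p = 0.584). Fitm2 measured 60.7, 70.8, 46.5 and 64.7 CPM against 106, 105, 87.1 and 93.4 CPM, a log2 difference of -0.68 (SE 0.12, edgeR adjusted p = 0.368). With the DESeq2 Wald test Fitm2 passed (adjusted p = 0.000873), as did Pnpla2 (log2 difference -0.27, adjusted p = 0.0435). Groups of HF females did not overlap for Fitm1, Fitm2, Pnpla2 and Mgll, the labelled knockouts being lower, while 3.94% of genes averaging at least 1 CPM were lower without overlap.

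G0s2 in HF females measured 97.1, 141, 89.9 and 70.6 CPM in labelled knockouts against 113, 181, 196 and 143 CPM in controls (log2 difference -0.65, SE 0.22, edgeR adjusted p = 0.584). Mgll measured 245 ± 51.0 against 333 ± 37.0 CPM (SD, n = 4 each; log2 difference -0.43, edgeR adjusted p = 0.584). Abhd5, Bscl2 and Lipe had log2 differences of -0.22, -0.10 and -0.01. Replicate 1 of the HF female controls held the highest Fitm1, and without it the log2 difference of Fitm1 was -0.79 (edgeR adjusted p = 0.602).

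In HFCF females Fitm1 measured 14.7, 17.8, 14.3 and 8.51 CPM in labelled knockouts against 31.0, 18.3, 54.7 and 21.7 CPM in controls (log2 difference -1.17, SE 0.33, edgeR adjusted p = 0.482). Fitm2 measured 41.2, 47.7, 57.7 and 37.9 CPM against 90.1, 87.3, 94.9 and 65.6 CPM (log2 difference -0.85, SE 0.15, edgeR adjusted p = 0.108). Fitm2 passed with the DESeq2 Wald test (adjusted p = 0.000311) and with no filter on low counts (edgeR adjusted p = 0.0246). Fitm1, Fitm2 and Mgll did not overlap between these groups, against 3.59% of genes averaging at least 1 CPM lower without overlap. Control replicate 3 held the 54.7 CPM of Fitm1, and without it the log2 difference was -0.75 (edgeR adjusted p = 0.463). Mgll measured 182 ± 20.2 against 231 ± 24.2 CPM and Pnpla2 75.5 ± 11.0 against 96.8 ± 12.7 CPM (SD, n = 4 each); the edgeR adjusted p was 0.547 for both. G0s2 stood higher in the labelled knockouts by 0.33 on the log2 scale (edgeR adjusted p = 0.601), and Bscl2, Abhd5 and Lipe differed by 0.04, -0.09 and -0.08.

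In LF females the 2 groups overlapped for all 8 genes. Fitm2 measured 75.0 ± 16.9 CPM in labelled knockouts and 74.6 ± 21.5 CPM in controls (SD, n = 4 each). Pnpla2 measured 118 ± 10.7 against 99.9 ± 16.1 CPM, a log2 difference of 0.26 (SE 0.12). The log2 differences of the others were -0.83 for Fitm1 (SE 0.51), -0.21 for Mgll, -0.17 for G0s2, 0.12 for Abhd5, 0.10 for Lipe and -0.03 for Bscl2.

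**Figure D3:**
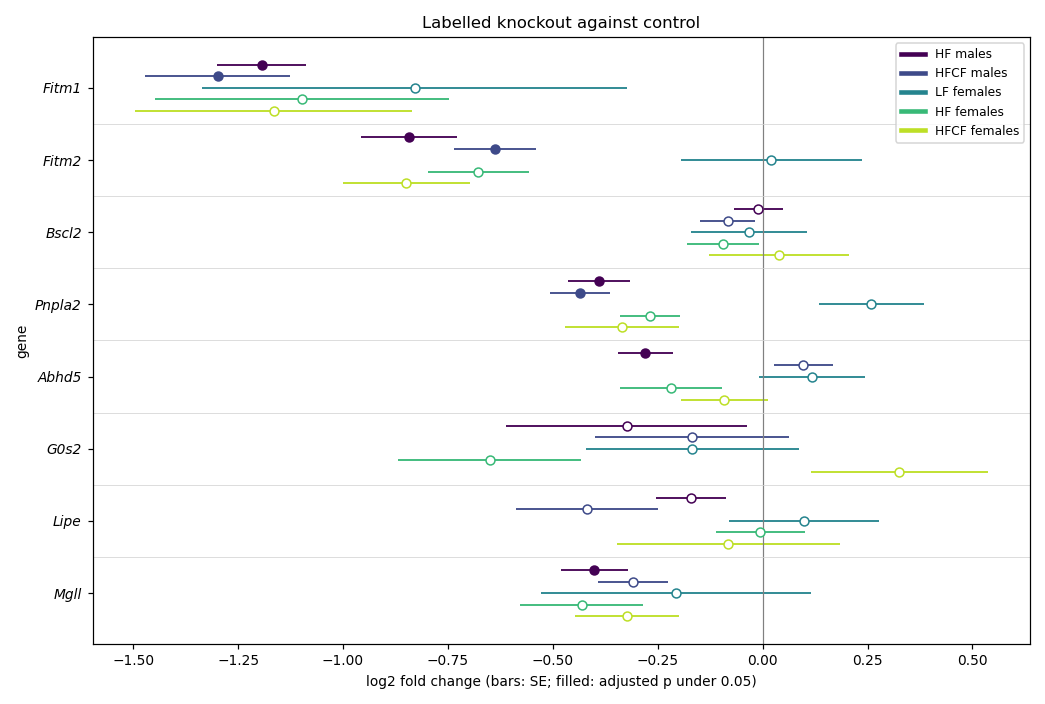
Log2 fold change of labelled knockouts over controls (horizontal axis; bars are the SE of the edgeR fit) for each gene in 5 comparisons, filled where the adjusted p was under 0.05. Filled points occur in males only: 5 genes on HF and 3 on HFCF.

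That males passed and females did not does not by itself show a difference between the sexes, which the interaction tests. The interaction of label with sex called 0 of the 8 genes on HF and on HFCF, where 0% of all genes tested passed, and 0 of 8 reached an unadjusted p under 0.05 in edgeR (10.6% and 9.67% of all genes did) or passed with DESeq2. Over all genes the DESeq2 Wald test called 46 on HF and 17 on HFCF, and with 1 liver left out edgeR called up to 287 on HF. This does not show a like response in both sexes. For Fitm1 it was -0.09 (SE 0.32) on HF and -0.13 (SE 0.37) on HFCF. The Fitm2 interaction was -0.15 (SE 0.19) and 0.22 (SE 0.18). Between the female diets the interaction of label with diet called 0 of 8 for HF against LF (2 at an unadjusted p under 0.05) and 0 of 8 for HFCF against HF (1 at an unadjusted p under 0.05); 3.71% and 4.32% of all genes reached that unadjusted p. By edgeR 0% of all genes passed, and by DESeq2 0 of the 8. For HF against LF the interaction of Pnpla2 was -0.52 (SE 0.14) and that of Fitm2 -0.69 (SE 0.27), both with an edgeR adjusted p of 0.999.

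Among the authors' deposited tables, the adjusted p of Fitm2 between labelled knockouts and controls was 0.00156 in HF females and 0.000287 in HFCF females. In the authors' deposited table Pnpla2 did not pass in HF females (adjusted p = 0.116). In the authors' deposited table for HFCF males that of Mgll was 0.0188.

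The diet comparisons asked how the same genes differ between LF, HF and HFCF livers. HF against LF in female controls called 1 of the 8, Fitm1, where 0.443% of all genes tested were higher and 0.696% changed. From the levels given above its log2 difference was 1.95 (SE 0.32, edgeR adjusted p = 0.0322), a fold of 3.85, without overlap. The call was lost when any of LF control replicates 1 to 4 or HF control replicate 3 or 4 was left out, with edgeR adjusted p of 0.0527 to 0.0926 and log2 differences of 1.75 to 2.10. Without HF control replicate 1, which held 37.1 CPM, it was 1.64 (edgeR adjusted p = 0.0263). The other 7 had log2 differences of -0.24 (G0s2) to 0.39 (Fitm2). In the authors' deposited table the adjusted p of Fitm1 was 1.38e-07.

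HF against LF in female labelled knockouts called 0 of the 8, where 0.155% of all genes tested passed; 3 of 8 had an unadjusted p under 0.05 in edgeR, as did 13.4% of all genes, and 1 passed with DESeq2. Fitm1 measured 11.0 ± 5.14 against 3.41 ± 2.94 CPM (SD, n = 4 each; log2 difference 1.68, edgeR adjusted p = 0.205). Pnpla2 measured 90.8, 87.6, 78.6 and 93.1 CPM on HF against 131, 112, 123 and 108 CPM on LF. Its groups did not overlap, and the log2 difference was -0.44 (SE 0.09, edgeR adjusted p = 0.0855; DESeq2 adjusted p = 0.0014). In the authors' deposited table the adjusted p of Pnpla2 was 0.00334.

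HFCF was also set against LF. In female controls 2 of the 8 genes were higher, where 18.4% of all genes tested were, and 1 was lower, where 16.8% were (35.2% in either direction), so the count of 3 is near that share. Fitm1 rose by 2.34 on the log2 scale (SE 0.37, edgeR adjusted p = 0.00163) and Abhd5 by 0.49 (SE 0.12, edgeR adjusted p = 0.0114). Abhd5 measured 31.2, 29.2, 24.3 and 27.1 CPM on HFCF against 15.8, 20.9, 19.0 and 23.3 CPM on LF. G0s2 measured 88.0, 104, 95.2 and 68.6 CPM against 125, 233, 187 and 201 CPM, a log2 difference of -1.08 (SE 0.18, edgeR adjusted p = 0.00207). Neither Abhd5 nor G0s2 overlapped between these diets. The 3 calls held with any 1 of the 8 libraries left out. Mgll, at 231 ± 24.2 against 348 ± 168 CPM (SD, n = 4 each), passed only without LF control replicate 1 (log2 difference -0.83, edgeR adjusted p = 0.00878, against -0.59 and 0.145 with it).

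In female labelled knockouts, HFCF against LF called 1 of the 8 higher, where 8.26% of all genes were, and 3 lower, where 3.74% were (12.0% in either direction). Fitm1 rose by 2.03 (SE 0.46, edgeR adjusted p = 0.0162). Pnpla2 fell by 0.63 on the log2 scale (SE 0.13, edgeR adjusted p = 0.0118), from 108 to 131 CPM on LF to 60.7 to 87.2 CPM on HFCF. Fitm2 fell by 0.67 (SE 0.18, edgeR adjusted p = 0.0329) and Mgll fell by 0.69 (SE 0.18, edgeR adjusted p = 0.028). The Fitm1 call was lost without HFCF labelled-knockout replicate 2 (1.88, edgeR adjusted p = 0.0548). That of Fitm2 was lost without LF replicate 2 or 3 or HFCF replicate 2 or 4 (edgeR adjusted p = 0.0635 to 0.106), and that of Mgll without those 4 or HFCF replicate 3 (edgeR adjusted p = 0.0606 to 0.0932). Mgll was also lost with all female groups in 1 fit (edgeR adjusted p = 0.0512), and G0s2 was gained without HFCF replicate 1 (log2 difference -0.82, edgeR adjusted p = 0.0403). Abhd5, Bscl2 and Lipe did not pass, with log2 differences of 0.31 and -0.30 for Abhd5 and Lipe (edgeR adjusted p = 0.112 and 0.47).

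HFCF against HF set 18 weeks of HF followed by 16 weeks of HFCF against 34 weeks of HF. Whether the 2 diets also differ in their fat is not given here. In female controls 2 of the 8 genes were lower, G0s2 and Mgll, where 13.8% of all genes tested were lower and 30.8% changed. G0s2 measured 68.6 to 104 CPM on HFCF against 113 to 196 on HF, a log2 difference of -0.81 (SE 0.18, edgeR adjusted p = 0.0123). Mgll measured 203 to 260 CPM against 304 to 383, a log2 difference of -0.51 (SE 0.11, edgeR adjusted p = 0.0109). Neither overlapped, and both calls held with any 1 of the 8 libraries left out. Mgll was lost with all female groups in 1 fit (edgeR adjusted p = 0.123). Bscl2 (-0.28, edgeR adjusted p = 0.0576) and Abhd5 (0.28, edgeR adjusted p = 0.0728) did not pass; both passed without HF replicate 1 (edgeR adjusted p = 0.0196 and 0.0133) or without HFCF replicate 3 (edgeR adjusted p = 0.0204 and 0.0442), and Bscl2 with the DESeq2 Wald test (adjusted p = 0.0489). Lipe passed only without HFCF replicate 3 (log2 difference -0.61, edgeR adjusted p = 0.0113, against -0.38 and 0.159 with it).

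In female labelled knockouts, HFCF against HF called 0 of the 8 where 14.5% of all genes tested passed; 4 of 8 had an unadjusted p under 0.05 in edgeR, as did 30.2% of all genes, and the DESeq2 Wald test called 1. Abhd5 measured 24.4, 26.4, 24.4 and 27.8 CPM against 17.8, 23.0, 17.2 and 21.3 CPM, without overlap, with a log2 difference of 0.39 (SE 0.12, edgeR adjusted p = 0.051). It passed with DESeq2 size factors in edgeR (adjusted p = 0.0488), with the DESeq2 Wald test (adjusted p = 0.0188) and with all female groups in 1 fit (edgeR adjusted p = 0.0245). Replicate 1 of the HFCF labelled knockouts held the highest Bscl2 (56.2 CPM), Lipe (22.5 CPM) and G0s2 (158 CPM) of its group. Without it Abhd5 (0.43, edgeR adjusted p = 0.0216), Bscl2 (-0.35, edgeR adjusted p = 0.0146) and Lipe (-0.72, edgeR adjusted p = 0.00553) passed. Without replicate 3 of the HF labelled knockouts, Fitm2 (-0.49, edgeR adjusted p = 0.0475) and Mgll (-0.56, edgeR adjusted p = 0.0158) passed.

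In male controls HFCF against HF called 2 of the 8 lower, where 9.31% of all genes tested were lower and 22.3% changed. Bscl2 measured 40.0 to 51.2 CPM (median 43.3) against 48.8 to 56.4 (median 50.5), a log2 difference of -0.20 (SE 0.06, edgeR adjusted p = 0.0349). Mgll measured 211 to 301 CPM (median 267) against 291 to 347 (median 314), a log2 difference of -0.25 (SE 0.08, edgeR adjusted p = 0.0395). Both overlapped between diets, and both depended on single libraries. Bscl2 was lost without HF replicate 1, 2 or 3 or HFCF replicate 2, 4, 5 or 6 (edgeR adjusted p = 0.0542 to 0.0855), and Mgll without HF replicate 1, 3, 4, 5 or 6 or HFCF replicate 3, 4, 5 or 6 (edgeR adjusted p = 0.0577 to 0.0875). Without HFCF replicate 1, 5 genes passed, Fitm1 (-0.29), Fitm2 (-0.19) and Lipe (-0.43) being added with edgeR adjusted p of 0.00285, 0.037 and 0.00627. With all libraries those 3 differed by -0.11, -0.13 and -0.27.

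In male labelled knockouts HFCF against HF called 3 of the 8, 1 higher and 2 lower, where 21.6% of all genes tested were higher and 20.0% lower (41.7% in all), a share near that of the 8 genes. Lipe measured 10.9 to 18.8 CPM (median 14.4) on HFCF against 19.0 to 22.1 (median 21.0) on HF, without overlap, a log2 difference of -0.53 (SE 0.10, edgeR adjusted p = 0.000893). Bscl2 measured 38.8 to 45.4 CPM against 44.9 to 55.0, a log2 difference of -0.29 (SE 0.06, edgeR adjusted p = 0.00177). Abhd5 rose, from a mean of 23.5 ± 1.69 to 27.3 ± 1.48 CPM (SD, n = 6 each), by 0.22 on the log2 scale (SE 0.06, edgeR adjusted p = 0.0114). These 3 calls held with any 1 of the 12 libraries left out. Mgll was added without HF replicate 2 (-0.23, edgeR adjusted p = 0.0195) and Fitm1 without HF replicate 6 (-0.32, edgeR adjusted p = 0.0367). Fitm1, Fitm2, G0s2, Pnpla2 and Mgll differed by -0.23, 0.06, 0.01, -0.09 and -0.18 with all libraries.

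Markers of several cell types also differed with the HFCF diet. Against HF, 4 of 5 macrophage markers were higher in female controls, male controls and male labelled knockouts, and 2 of 5 in female labelled knockouts. Their summed level was 760 to 934 CPM in HFCF female controls against 273 to 470 on HF, and 582 to 977 in HFCF male labelled knockouts against 324 to 463. Of the 5 hepatocyte markers, 3 were lower in female controls, 2 in male controls, 5 in male labelled knockouts and 0 in female labelled knockouts. In HFCF male labelled knockouts they summed to 54009 to 63987 CPM against 88687 to 103716 on HF. Against LF, 5 of 5 were lower in HFCF female controls. Of the 5 hepatic stellate markers, 1 was higher on HFCF than on HF in female controls, 4 in female labelled knockouts, 2 in male controls and 3 in male labelled knockouts. Both blood markers were lower in HFCF male labelled knockouts (median log2 difference -1.50). Of all genes tested, HFCF against HF changed 30.8% in female controls, 14.5% in female labelled knockouts, 22.3% in male controls and 41.7% in male labelled knockouts. In female controls 2490 of 14701 genes were higher, a share near that of the stellate markers there. Against LF, 16.8% of all genes were lower in HFCF female controls. The part of these markers in the diet results was not tested.

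**Figure D4:**
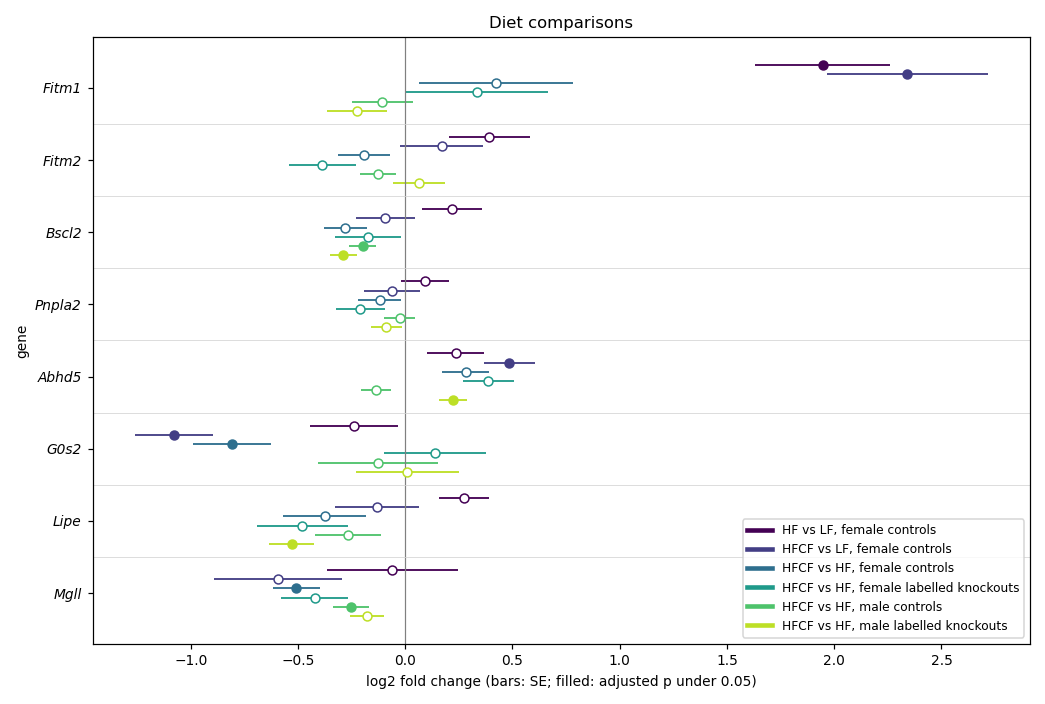
Log2 fold change between diets (horizontal axis; bars are the SE of the edgeR fit) for each gene in 6 comparisons, filled where the adjusted p was under 0.05. Fitm1 was called against LF only, G0s2 in female controls only, and Lipe in male labelled knockouts only.

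Sex was compared within diet and label; sex cannot be told apart from whatever else separated the male and female animals. On HF, Fitm1 was 1.32 higher in male than in female controls on the log2 scale (SE 0.18, edgeR adjusted p = 0.000685), without overlap, and 1.23 higher in male than in female labelled knockouts (SE 0.26, edgeR adjusted p = 0.00862). Both calls held with any 1 of the 10 libraries left out. Of the 8 genes 2 were higher in the HF male controls, where 8.52% of all genes tested were (18.1% in either direction), and 1 in the HF male labelled knockouts, where 7.32% were (14.3% in either direction). The other was Abhd5, at 28.4 ± 1.76 (n = 6) against 23.3 ± 2.78 CPM (SD, n = 4; log2 difference 0.29, edgeR adjusted p = 0.0339). That call was lost without male replicate 1, 2, 3, 5 or 6 or female replicate 2, 3 or 4 (edgeR adjusted p = 0.0514 to 0.109). On HF the 6 other genes differed between the sexes by -0.25 (G0s2) to 0.15 (Lipe) in controls. In HF controls the hepatocyte markers summed to 60182 to 84771 CPM in males and 88979 to 105763 in females, without overlap. The adipocyte markers summed to 1.64 to 8.18 and 0 to 0.347 CPM. In HF labelled knockouts the hepatocyte sums overlapped, at 88687 to 103716 and 97321 to 120023 CPM. The part of these markers in the sex results was not tested.

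On HFCF 0 of the 8 passed between the sexes, in controls (2.63% of all genes tested passed) or in labelled knockouts (5.40%). At an unadjusted p under 0.05 in edgeR there were 1 and 3 (15.1% and 23.2% of all genes), and the DESeq2 Wald test called 0 and 2. Fitm1 was 0.80 higher in male controls (SE 0.29, edgeR adjusted p = 0.21) and 0.68 higher in male labelled knockouts (SE 0.19, edgeR adjusted p = 0.0521). Without HFCF female control replicate 3 the first was 1.22 (edgeR adjusted p = 0.0285). The second passed without male replicate 2 (0.76, edgeR adjusted p = 0.0475) or female replicate 2 (0.82, edgeR adjusted p = 0.0295), with the DESeq2 Wald test (adjusted p = 0.0141) and with no filter (edgeR adjusted p = 0.0292). Fitm2 was 0.44 higher in male labelled knockouts (edgeR adjusted p = 0.0563) and passed without female replicate 3 (0.54, edgeR adjusted p = 0.0428), with the DESeq2 Wald test (adjusted p = 0.0227) and with no filter (edgeR adjusted p = 0.0433). The interaction of diet (HFCF against HF) with sex called 0 of 8 in controls, where 0.00646% of all genes tested passed, and 0 of 8 in labelled knockouts, where 0.0130% did. By edgeR 1 of the 8 reached an unadjusted p under 0.05 in each, as did 16.5% and 11.9% of all genes, and by DESeq2 0 passed. In controls Abhd5 had an interaction of -0.41 (edgeR adjusted p = 0.188), which passed without HF female control replicate 1 (-0.49, edgeR adjusted p = 0.0163).

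The inhibitor was also set against its lipase within each liver, as the log2 ratio of G0s2 reads to Pnpla2 reads, which no scaling between libraries can change. It was 0.88 ± 0.45 in LF female controls, 0.54 ± 0.41 in HF female controls and -0.13 ± 0.07 in HFCF female controls (SD, n = 4 each). In HFCF female controls all 4 livers had fewer G0s2 than Pnpla2 reads, from -0.20 to -0.03. In the HFCF female labelled knockouts all 4 had more, from 0.32 to 0.86. The male groups overlapped, with means of 0.13 and 0.26 on HF and 0.11 and 0.36 on HFCF (controls, then labelled knockouts). Of 17 pairwise comparisons none passed a 2-sided exact permutation test after Benjamini-Hochberg adjustment over the 17, and 3 reached 0.0286, the smallest p that 4 against 4 livers allow (adjusted p = 0.162). Those 3 did not overlap: the labelled knockouts against controls in HFCF females (0.63), HFCF against HF in female controls (-0.67), and HFCF against LF in female controls, whose means are given above. They share the HFCF female controls.

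**Figure D5:**
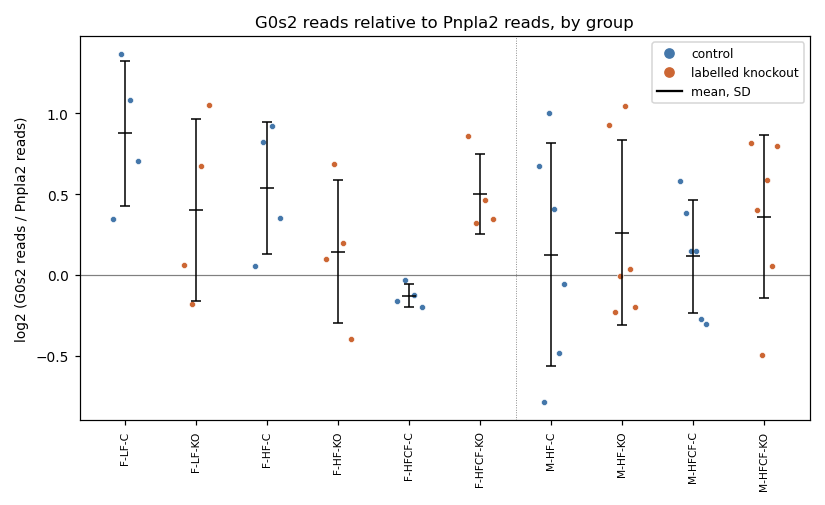
Log2 ratio of G0s2 reads to Pnpla2 reads (vertical axis; 0 means equal reads) in each of 48 livers, by group, with the mean and SD of 4 or 6 livers. The 4 HFCF female controls lie below 0 and close together, while 6 of the other groups spread on both sides of 0.

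Some other genes of droplet assembly (a list of 26 genes: synthesis enzymes, perilipins, CIDE proteins and partners of seipin) also differed with the label in males. The list was chosen with earlier results of these data known, so its share beside that of all genes is a description only. In HF males 11 of 25 tested were lower in labelled knockouts and 2 higher, where 9.88% of all genes tested were lower and 18.5% changed, with a list median of -0.21 against 0.00 for all genes tested. Cidea and Cidec, which fuse droplets, fell by 5.99 (SE 0.36) and 4.68 (SE 0.11) on the log2 scale, with edgeR adjusted p of 5.17e-08 and 1.14e-13. Dgat2, the last enzyme of triglyceride synthesis, and Cideb were higher by 0.27 and 0.22 (edgeR adjusted p = 0.0463 and 0.0228), calls kept in 5 and 9 of 12 fits leaving out 1 library. In HFCF males 6 of 26 were lower and 0 higher, where 1.27% of all genes were lower. Cidea fell by 5.44 and Plin4, a perilipin, fell by 2.89 (edgeR adjusted p = 5.94e-07 and 1.08e-07). In females 0 of 24 passed on LF, 0 of 24 on HF and 2 of 25, both lower, on HFCF, where 0%, 0% and 0.0534% of all genes did. Cidec fell by 2.39 and Mogat1, which makes diglyceride, fell by 1.64 (edgeR adjusted p = 0.0422 and 0.0494). These calls were kept in 1 and 2 of 8 such fits. At an unadjusted p under 0.05 in edgeR there were 1 on LF and 8 on HF, against 2.49% and 8.03% of all genes.

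The other list, chosen with the same knowledge, held lipolysis genes and regulators (27 genes). In HF males 7 of 24 tested were lower and 2 higher in labelled knockouts, beside the same 9.88% and 18.5% of all genes, with a list median of -0.06. The channel Aqp7, which passes glycerol, fell by 5.33 (SE 0.41, edgeR adjusted p = 5.32e-07) and the lipase Ddhd2 fell by 0.66 (SE 0.11, edgeR adjusted p = 0.00061). Hepatic lipase (Lipc) and the hydrolase Aadac rose by 0.56 and 0.34 (edgeR adjusted p = 4.23e-05 and 0.0101). In HFCF males 2 of 25 were lower, where 1.27% of all genes were, Aqp7 (-1.54) and Plin5 (-0.37), with edgeR adjusted p of 0.0414 and 0.03, kept in 2 and 7 of 12 such fits. In females 0 passed by edgeR on any diet, with 0, 3 and 5 at an unadjusted p under 0.05 on LF, HF and HFCF, against 2.49%, 8.03% and 8.95% of all genes.

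Between diets, calls in both lists went in both directions. For HFCF against HF in male labelled knockouts, 7 of 25 droplet assembly genes were higher and 5 lower, and 5 of 25 lipolysis genes were higher and 8 lower. Of all genes tested there 21.6% were higher and 20.0% lower. Cidec and Aqp7 rose there by 2.38 and 4.73 (edgeR adjusted p = 8.92e-06 and 6.36e-07), while Lpin1, which makes diglyceride from phosphatidate, fell by 0.99 (edgeR adjusted p = 0.000473). In female controls 2 of 25 assembly genes were higher and 5 lower on HFCF than on HF, and of the lipolysis genes 5 were higher and 9 lower of 25, where 30.8% of all genes changed. For HFCF against LF in female controls Cidec and Mogat1 rose by 3.20 and 2.81 (edgeR adjusted p = 0.000161 and 0.00111).

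For the 3 genes whose group means of log2 CPM spanned at least 1, the genes with the most similar profile over the 10 groups were sought, by the root mean square difference of centred group means. For Fitm1 they were Adgrv1, Rnf125 and Tmem45b, at 0.60, 0.62 and 0.62 for a Fitm1 span of 4.46. For Fitm2 they were Gpd2, Paqr7 and Pcx, at 0.13, 0.13 and 0.14 for a span of 1.23. Those of G0s2 were Gpr135, Elmod3 and Tymp, at 0.15, 0.16 and 0.16 for a span of 1.05. These are descriptions over 10 groups, chosen as the closest of the genes averaging at least 1 CPM, with predicted genes and pseudogenes left out.

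In the deposited tables (GRCm38) Fitm1 (ENSMUSG00000022215) lies on chromosome 14, from 55575617 to 55576954, plus strand, and Fitm2 (ENSMUSG00000048486) on chromosome 2, from 163466379 to 163472629, minus strand. Bscl2 (ENSMUSG00000071657) is on chromosome 19, from 8837467 to 8848683, plus strand, and G0s2 (ENSMUSG00000009633) on chromosome 1, from 193272161 to 193273217, minus strand. Pnpla2 (ENSMUSG00000025509) is on chromosome 7, from 141455198 to 141460743, plus strand, and Lipe (ENSMUSG00000003123) on the same chromosome, from 25379527 to 25398710, minus strand. Abhd5 (ENSMUSG00000032540) is on chromosome 9, from 122351608 to 122381524, plus strand, and Mgll (ENSMUSG00000033174) on chromosome 6, from 88724412 to 88828360, plus strand. Each is protein coding. Pnpla2 overlaps no other gene of the tables. The other 7 overlap at least 1, and without strand their reads cannot be told apart where they coincide. The overlapping genes held at most 597 reads in a library at Mgll, 362 at G0s2 (Lamb3), 47 at Lipe, 43 at Fitm1, 13 at Fitm2 and 5 at both Bscl2 and Abhd5.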

How the data were processed

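Whole-liver RNA of 48 mice was sequenced from libraries that were not strand specific, per the labels. Per the submitters' processing notes, STAR 2.6.1, HTSeq 0.6.1 and DESeq2 were used with GRCm38 (mm10); their roles and settings are not given in the sources used here. The deposited tables, 11 in all, hold a whole-number count per gene and library, a normalised signal that the authors obtained by dividing the count by 1 factor per library (checked), and the authors' FPKM. Fold changes on the log2 scale and adjusted p-values from the authors stand beside them and are printed only where named.

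The tables were joined on gene identifier into 29221 genes by 48 libraries (0 of 1341082 repeated counts differed; 0 columns without a sample), a gene missing from a table being set to 0. CPM used TMM factors. Each of 17 pairwise comparisons and 7 interactions was fitted to its own groups with edgeR 4.0.16 (filterByExpr, quasi-likelihood F test), adjusted by Benjamini-Hochberg over all genes tested and called at an adjusted p under 0.05. The fit was tested on simulated data. DESeq2 1.42.0, other scalings and filters, a single fit, a replicate block and leaving out each library were alternatives. Livers are separate mice, and replicate numbers were not treated as pairs in the main fits. The 8 genes and the lists were chosen with earlier results of these data known. Named besides the 8 are up to 2 called genes per list and direction with the largest fold change, and 3 genes of similar profile. Protein sequences were not used here.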

Additional observations from a re-analysis of the deposited data

Results flagged for a closer look

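Among 90 groups of 4 or 6 livers (8 genes and Pparg in 10 groups), 5 held 1 liver far from the others of its group; chance gives about 1 in 20. For Fitm1, replicate 1 of the HF female controls had 37.1 CPM against 17.9 to 20.5 in the other 3, and replicate 1 of the HFCF male controls had 89.0 CPM against 41.0 to 52.2 in the other 5. For Fitm2, replicate 6 of the HF male labelled knockouts had 87.3 CPM against 48.9 to 61.4, and that liver also had the lowest Pparg of its group, 18.0 CPM. Bscl2 was 56.4 CPM in replicate 2 of the HF male controls against 48.8 to 51.5. Abhd5 was 25.0 CPM in replicate 4 of the same group against 28.1 to 29.8.

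The difference of Abhd5 between male labelled knockouts and controls itself differed between diets, by 0.36 on the log2 scale (edgeR adjusted p = 0.0408), in a call that 16 of 24 fits leaving out 1 library lost.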

How the results depend on the processing

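Of 192 log2 differences (8 genes in 24 comparisons), 27 were called, and 19 of these were called in every fit that left out 1 library. No called value changed sign under any alternative run. The number of the 8 genes called stayed within 1.5 times of the main count except as follows. With the DESeq2 Wald test it was 2 for the label in HF females, 1 for the label in HFCF females, 1 for HF against LF in female labelled knockouts, 1 for HFCF against HF in female labelled knockouts and 2 for the sexes in HFCF labelled knockouts, each 0 in the edgeR fit. With no filter on low counts it was 1 for the label in HFCF females, 2 for the sexes in HFCF labelled knockouts and 0 (in place of 1) for the interaction of label with diet in males. With all groups of the sex in 1 fit it was 1 in place of 2 for HFCF against HF in female controls, and 1 in place of 0 in female labelled knockouts. DESeq2 size factors also gave 1 there.

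Correlations of same-numbered livers ran from -0.29 to 0.43, and in 0 of 13 comparisons did every pair exceed 0.1. By that rule the numbers were not treated as pairs, which does not show that no livers were paired. With the replicate block the count fell to 0 from 2 for HFCF against HF in female controls, to 1 from 2 in male controls, and to 0 from 1 for the interaction of label with diet in males. The HFCF female controls are numbered 1, 2, 3 and 5, so only 3 numbers are shared with the HF female controls. In a pairwise comparison, livers with an unshared number add nothing to the blocked fit. A block joined livers of the same sex and replicate number, so pairwise comparisons of the sexes shared no block and none was fitted.

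Leaving out each liver in turn, the count ran from 5 to 5 for the label in HF males and 3 to 4 in HFCF males, and stayed at 0 in LF, HF and HFCF females. It ran from 0 to 1 for HF against LF in female controls, stayed at 0 in female labelled knockouts, and for HFCF against LF ran from 3 to 4 and from 1 to 5. For HFCF against HF it ran from 2 to 5 in female controls, 0 to 3 in female labelled knockouts, 0 to 5 in male controls and 3 to 4 in male labelled knockouts. For the sexes it ran from 1 to 2 (HF controls), 1 to 1 (HF labelled knockouts) and 0 to 1 (both HFCF comparisons). The interactions of label with diet in males and of diet with sex in controls ran from 0 to 1. For the log2 G0s2 to Pnpla2 ratio, the exact permutation test allows no p under 0.0286 in comparisons of 4 against 4 livers. Adjusted over the 17 comparisons this was 0.162, so passing gives little measure of stability there. With 1 liver left out the difference in log2 ratio took both signs for the label in HF males (-0.05 to 0.31), HFCF against HF in male controls (-0.19 to 0.16), HFCF against LF in female labelled knockouts (-0.10 to 0.31) and the sexes in labelled knockouts on HF (-0.06 to 0.30) and HFCF (-0.23 to 0.03). Over all genes, the counts called moved by more than 1.5 times with the DESeq2 Wald test for the label in HFCF males (719 against 324), in LF females (8 against 0), HF females (70 against 0) and HFCF females (81 against 8), for HF against LF in female controls (667 against 99) and labelled knockouts (510 against 22), for the sexes on HFCF (794 against 396 in controls, 1585 against 811 in labelled knockouts) and for the label by diet in males (610 against 235). With the replicate block they moved to 165 from 324 for the label in HFCF males, to 0 from 8 in HFCF females, to 0 from 4526 for HFCF against HF in female controls and 1180 from 2118 in female labelled knockouts, to 2036 from 5199 for HFCF against LF in female controls, to 9 from 22 for HF against LF in female labelled knockouts, and to 127 from 235 for the label by diet in males. In a single fit they moved to 313 from 99 and 114 from 22 for HF against LF (female controls, labelled knockouts), to 2747 from 1754 for HFCF against LF in female labelled knockouts and to 1910 from 811 for the sexes in HFCF labelled knockouts. With no filter they moved to 26 from 8 for the label in HFCF females, and to 185 from 99 and 124 from 22 for HF against LF. Leaving out 1 liver, they ran from 185 to 1052 for the label in HFCF males, 10 to 112 for HF against LF in female controls, 2454 to 6530 for HFCF against HF in female controls, 866 to 4402 in female labelled knockouts, 1340 to 5053 for the sexes in HF controls and 0 to 1699 for diet by sex in controls. They also ran from 0 to 19 for the label in HFCF females, 0 to 124 for HF against LF and 681 to 3587 for HFCF against LF in female labelled knockouts, 2217 to 5429 for HFCF against HF in male controls, 1278 to 2002 for the sexes in HF labelled knockouts, 183 to 638 and 262 to 1146 in HFCF controls and labelled knockouts, 119 to 412 for the label by diet in males, 0 to 287 for the label by sex on HF and 0 to 43 for diet by sex in labelled knockouts. The counts for diet by sex were 1 and 2, and 134 and 172 with DESeq2. Depth limits Fitm1 in LF females most, with 19 to 146 reads per library.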
